A study of Rattus norvegicus with 6 samples.

Results

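Gene expression was compared in cultured rat oligodendrocyte precursors before differentiation (day 0) and after it (day 3), for the probes of 3 cell-surface receptors, Pdgfra, Egfr and Ednrb. They were chosen by Ensembl gene identifier: ENSRNOG00000002244 for Pdgfra, ENSRNOG00000004332 for Egfr and ENSRNOG00000010997 for Ednrb. All 3 were found, with 1 spot each on every array, among 20174 rat gene spots. The study holds 6 single-colour arrays of total RNA, 3 for each day. The titles number 2 arrays of each day and leave 1 of each day unnumbered. Both groups began as the same kind of precursor, grown in Raff medium, and the day 3 cells had also been through a change of growth factors. The labels do not name those factors or give the strain, the age of the animals or whether the arrays of a day came from separate cultures. P-values therefore measure the spread between arrays, which may be technical.

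Oligodendrocyte precursors proliferate in the brain and spinal cord and mature into oligodendrocytes, the glia that wrap axons in myelin. The PDGF receptor alpha, made from Pdgfra, is a receptor tyrosine kinase that passes the signal of platelet-derived growth factor, the main mitogen of these cells, and it is the receptor most used to recognise them. The EGF receptor, made from Egfr, is a receptor tyrosine kinase of the ErbB family that binds EGF, TGF-alpha and related ligands and is found on dividing glial progenitors. The endothelin receptor B, made from Ednrb, couples to G proteins, binds the endothelin peptides and is carried by both astrocytes and oligodendrocyte precursors.

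The genomic sequence before the annotated start site of each gene is shown because the question of the comparison is the transcript level of these genes at both stages. The stretches are the 250 bases before the start site in RefSeq on GRCr8, written 5′ to 3′ on the gene's own strand, and capitals mark matches to the motifs searched. No build is named for the array's own annotation in the labels or headers, so these sequences were matched by symbol.
Pdgfra, chr14:33408517-33408766, minus strand: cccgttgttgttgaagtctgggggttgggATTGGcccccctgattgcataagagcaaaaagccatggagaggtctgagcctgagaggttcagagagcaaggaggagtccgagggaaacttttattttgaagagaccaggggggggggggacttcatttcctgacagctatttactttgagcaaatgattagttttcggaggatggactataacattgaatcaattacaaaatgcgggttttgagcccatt
Egfr, chr14:95378376-95378625, plus strand: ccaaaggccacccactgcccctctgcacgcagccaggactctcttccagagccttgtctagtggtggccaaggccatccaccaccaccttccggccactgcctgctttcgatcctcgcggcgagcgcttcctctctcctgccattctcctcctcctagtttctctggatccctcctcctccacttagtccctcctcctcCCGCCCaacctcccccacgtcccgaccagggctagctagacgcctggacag
Ednrb, chr15:87086766-87087015, minus strand: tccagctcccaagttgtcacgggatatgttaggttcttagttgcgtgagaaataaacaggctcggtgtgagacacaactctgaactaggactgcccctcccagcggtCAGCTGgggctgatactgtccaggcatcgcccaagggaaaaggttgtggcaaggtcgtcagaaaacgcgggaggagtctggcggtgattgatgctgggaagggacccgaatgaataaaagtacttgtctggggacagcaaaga

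The motifs were searched on both strands as exact letters: the GC box GGGCGG, the CAAT box CCAAT, the TATA box TATAAA, the E-box CAGCTG, the AP-1 site TGACTCA and the SOX core AACAAT. Egfr held 1 match, a GC box on the strand opposite the gene, at 51 to 46 bases before the start. That motif was found in 30.5% of 33469 rat promoter stretches of the same length. Pdgfra held 1 CAAT box, also on the strand opposite the gene, at 221 to 217 bases before the start. The CAAT box was found in 34.0% of the stretches. Ednrb held 1 E-box at 143 to 138 bases before the start, a motif found in 12% of them. No match to the other motifs lay in these windows, and no motif was shared by any pair of the genes. No matches overlapped. The Egfr stretch was 63.6% G and C with 11 CpG pairs, against 53.2% and 10 for Ednrb and 47.2% and 4 for Pdgfra. The median of all stretches was 51.2% with 5 CpG pairs.

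On each array, the detection limit was the mean plus 2 SD of the blank spots once the highest and lowest 5% of them had been set aside, and lay between 13.9 and 16.9 scanner units. The median gene signal was between 26.4 and 38.9, with the lowest on day 3 number 1. All 3 receptors were above the limit on all 6 arrays. Per the values themselves, the authors' processed table is the spot signal minus the mean of the blank spots, scaled so that the median gene is 25 on every array. It did not use the background column that stands beside each spot. That column followed the signal of its own spot, with a Spearman correlation across gene spots of 0.917 to 0.968 per array, a description across genes that are not independent. The comparison was therefore made on log2(signal + 50) without it, quantile normalised, and values with it are given beside. The offset of 50 makes a fold change on this scale smaller than on the authors' scale for dim probes.

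The design asks which transcripts differ once precursors have differentiated. None of the 3 receptors passed the test across all genes, although Egfr came close to the threshold. Egfr had 39.7% of its day 0 level at day 3 and Ednrb 63.2% on the authors' processed scale, and for both every day 3 array lay below every day 0 array. Pdgfra was dim on every array, and its day 0 and day 3 values overlapped. Egfr was dim too at day 3, at 2.11 to 2.79 times the detection limit, where Pdgfra was at 1.80 to 4.24. With limma, 0 of 3 receptors were called lower at an adjusted p under 0.05, where 0.317% of the 15437 genes tested were called lower. Before adjustment, limma had 2 of the 3, Egfr and Ednrb, lower at a p under 0.05, where 6.11% of tested genes were. Groups that do not overlap were common: all day 3 values lay below all day 0 values for 18.6% of tested genes in spot signal, 9.11% after quantile normalisation and 6.33% in the authors' processed values. RNA came from whole cultures, in which fewer cells of a type and less RNA per cell cannot be told apart.

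**Figure D1:**
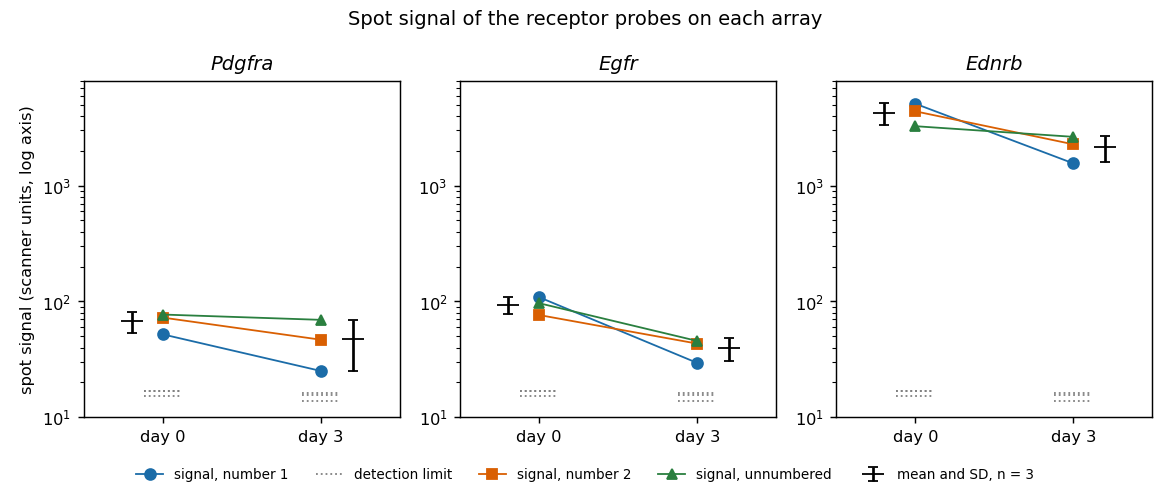
Spot signal in scanner units on a log axis for the Pdgfra, Egfr and Ednrb probes at day 0 and day 3; lines join arrays of the same number, black bars give mean and SD of 3 arrays, and dotted marks are the detection limits. Egfr and Ednrb do not overlap between the days, Pdgfra does, and signals of different probes are not comparable with each other.

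Pdgfra is the receptor for platelet-derived growth factor. At day 0 the spot read 51.9 scanner units on number 1, 72.5 on number 2 and 77.1 on the array without a number. At day 3 the readings were 25.1, 46.7 and 69.3, listed likewise. The unnumbered day 3 array lay above day 0 number 1, so the days overlapped, and the lowest value belonged to day 3 number 1, the array with the lowest median signal. The authors' processed values were 22.2, 27.4 and 34.0 at day 0 and 8.43, 22.6 and 35.2 at day 3, or 27.9 ± 5.93 and 22.1 ± 13.4 (SD, n = 3 each). Here the unnumbered day 3 array was the highest of all 6.

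The log2 change of Pdgfra was -0.17 (SE 0.16, 95% interval -0.59 to 0.24, adjusted p = 0.805, limma). The interval runs from 1.5-fold lower to a higher level at day 3, so neither a modest difference nor its absence was shown. Leaving out day 3 number 1 brought the change to -0.03 on this scale and to 0.04 in the authors' processed values. The signal was 1.80 to 4.56 times the detection limit, so the receptor that best marks precursors gave a detectable but weak spot at both times.

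The Pdgfra spot hardly stood out from its own background column. The column was 99.1%, 82.6% and 73.2% of the signal on the day 0 arrays and 102%, 86.8% and 79.9% on the day 3 arrays, number 1, number 2 and unnumbered in each case. Signal minus background was thus 0.44 units on day 0 number 1 and -0.56 units on day 3 number 1. With normexp correction on that column the log2 change was 0.003 (adjusted p = 0.998, limma).

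Egfr is the receptor for EGF and its relatives. The spot read 109, 76.3 and 96.5 scanner units at day 0 and 29.4, 43.2 and 45.6 at day 3, in the order number 1, number 2, unnumbered. The lowest day 0 array was 30.8 units above the highest day 3 array, and the means were 93.9 ± 16.4 and 39.4 ± 8.72 (SD, n = 3 each). The authors' processed values were 55.5, 29.2 and 44.8 at day 0 and 11.4, 20.2 and 19.8 at day 3. They gave means of 43.2 ± 13.2 and 17.1 ± 5.0 (SD, n = 3 each), again with no overlap.

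The log2 change of Egfr was -0.54 (SE 0.078, 95% interval -0.74 to -0.35), which is 1.46-fold lower at day 3 on the offset scale. Its unadjusted p was 0.000833, rank 204 of 15437 genes, and its adjusted p = 0.0627 (limma). In the authors' processed values, without the offset, it was 2.52-fold lower (95% interval 1.39 to 4.55, adjusted p = 0.127, limma), and 0 of the 3 receptors were called there, against 0.52% of 15398 genes called lower. The adjusted p crossed the threshold with some settings: it was 0.0498 with an offset of 16, 0.0396 with no offset, 0.0331 with the blank mean subtracted and 0.0442 with limma's trended, robust variance. With the pairs as a replicate block it was 0.126, with that block in the authors' processed values 0.00472, in a fit that gave all 3 receptors the same SE, and with normexp on the background column 0.531 at a log2 change of -0.43 (limma).

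The Egfr background column was 33.9%, 38.2% and 53.5% of the signal at day 0 and 50.1%, 69.8% and 74.5% at day 3. The share was lower than that of Pdgfra on each array, but at day 3 the spot was 11.6 to 14.7 units above its background, close to the 13.9 units of Pdgfra on the unnumbered day 3 array. Signal minus background was 71.9, 47.1 and 44.9 units at day 0 and 14.7, 13 and 11.6 at day 3, groups that again did not overlap, as was so for 20.4% of tested genes after this plain subtraction. With normexp on the same column, 5.95% of tested genes lay lower at day 3 without overlap, Egfr among them, and 0.00648% were called lower, none of the 3 receptors among them.

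**Figure D2:**
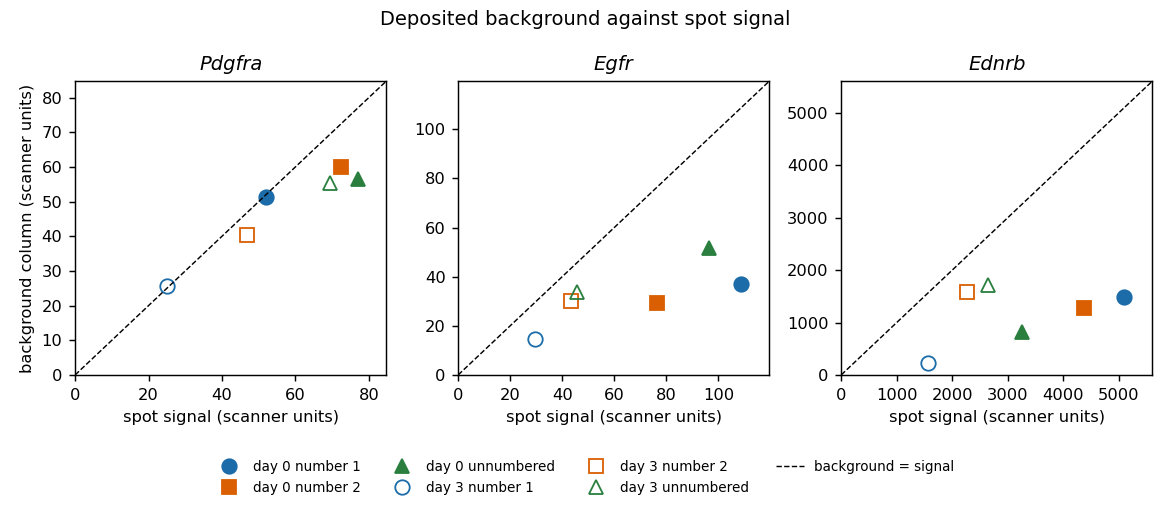
Deposited background column against spot signal, both in scanner units, for the Pdgfra, Egfr and Ednrb probes; filled symbols are day 0, open symbols day 3, shapes the array numbers, and the dashed line marks equality. Pdgfra lies nearest the line, Egfr lies below it, and Ednrb has a high background on 2 of 3 day 3 arrays.

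Ednrb is the B-type endothelin receptor. Its spot was bright on all arrays, at 5096, 4381 and 3260 scanner units at day 0 and 1555, 2273 and 2637 at day 3, in the order number 1, number 2, unnumbered. Every day 3 array lay below every day 0 array, by 622 units at the closest, and the means were 4246 ± 925 and 2155 ± 551 (SD, n = 3 each). In the authors' processed values it was 2976, 2072 and 1792 at day 0 and 1037, 1588 and 1698 at day 3. The gap narrowed there to 94.3 units, between the unnumbered arrays.

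The log2 change of Ednrb was -0.62 (SE 0.24, 95% interval -1.24 to -0.01), or 1.54-fold lower at day 3 (unadjusted p = 0.0477, adjusted p = 0.370, limma). Day 3 number 1 set much of its size: without that array the change was -0.35 (adjusted p = 0.151, limma). In the authors' processed values the receptor was 1.58-fold lower (adjusted p = 0.665, limma).

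With normexp correction on the background column the Ednrb change was -1.15, or 2.21-fold lower (SE 0.20, unadjusted p = 0.00274, adjusted p = 0.318, limma). The column stood at 1479, 1286 and 821 units at day 0, which is 29.0%, 29.3% and 25.2% of the signal. At day 3 it was 220, 1581 and 1724 units, or 14.2%, 69.6% and 65.4%. Subtraction thus removed most of the signal on day 3 number 2 and the unnumbered day 3 array and little of it on day 3 number 1. The order of the day 3 arrays turned with it, from lowest on number 1 in signal to highest there after subtraction, with 1335, 691 and 914 units.

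**Figure D3:**
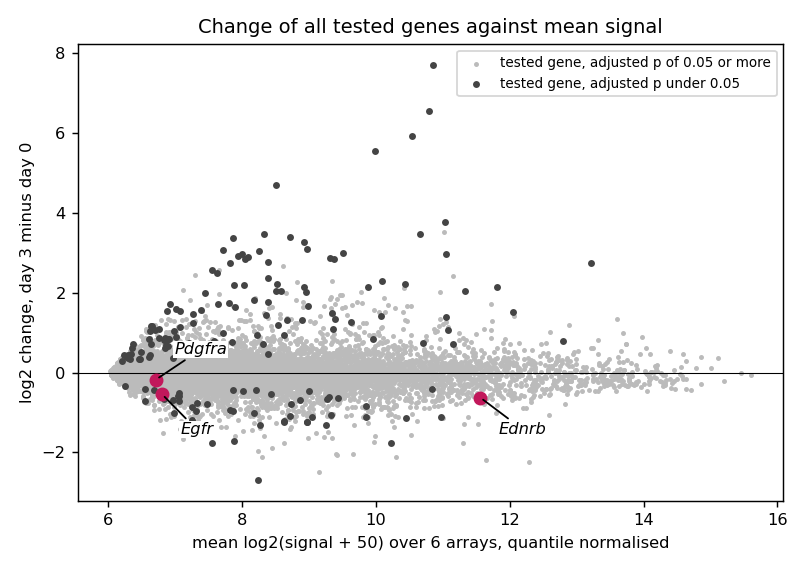
Log2 change from day 0 to day 3 against mean log2(signal + 50) over 6 arrays for 15437 tested genes, quantile normalised; dark points have an adjusted p under 0.05 and the 3 receptors are named. Egfr at -0.54 and Ednrb at -0.62 lie low but among genes that were not called, and Pdgfra at -0.17 lies near 0.

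Among all tested genes on the quantile-normalised scale, 3.87% had a lower log2 change than Egfr, 2.87% a lower one than Ednrb and 17.7% a lower one than Pdgfra. These shares depended on the scale. In the same order they were 1.81%, 9.46% and 12.8% in the authors' processed values. With normexp on the background column they were 6.89%, 0.939% and 51.1%. Since each receptor was read by a single probe, its change can be set against those of other genes but the levels of the receptors cannot be ranked.

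The change was also read within the title styles. The deviations of same-numbered arrays from their group means correlated across genes, which gives 3 pairs. Egfr differed by -0.74, -0.34 and -0.55 on the log2 scale in pair 1, pair 2 and the unnumbered pair. Ednrb differed by -1.24, -0.33 and -0.30, and Pdgfra by -0.26, -0.25 and -0.01. All 9 differences were below 0 on this scale, which for Egfr and Ednrb follows from days that do not overlap. The sign of Pdgfra depended on the scale. Pair 1 was at 0.08 with normexp on the background column, and the unnumbered pair at 0.05 in the authors' processed values. Its other pair differences on those scales were below 0. On the quantile-normalised scale the differences of Ednrb were the least even. In the authors' processed values the unnumbered pair kept 44.3% of its day 0 Egfr value, 94.7% of its Ednrb value and 103% of its Pdgfra value. Averaged over the numbered arrays the log2 changes were -0.54 for Egfr, -0.79 for Ednrb and -0.25 for Pdgfra. The day effect of the unnumbered pair minus that of the numbered pairs was 0.24 for Pdgfra, -0.007 for Egfr and 0.49 for Ednrb. In the authors' processed values it was 0.89, 0.23 and 0.87, in the same order. With only 1 unnumbered array per day, an interaction fit cannot decide whether the styles differ in the day effect. At equal day, unnumbered minus numbered arrays was 0.22 for Pdgfra, -0.003 for Egfr and 0.11 for Ednrb (adjusted p = 0.459, 0.991 and 0.859, limma).

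The changes of the receptors were next set against each other within each pair of arrays. Levels of different probes have no common scale, so only the difference between the log2 changes of each receptor pair is given. Egfr minus Pdgfra was -0.89, -0.26 and -1.22 in pair 1, pair 2 and the unnumbered pair in the authors' processed values, where the scaling between arrays cancels. It was -0.48, -0.10 and -0.54 on the quantile-normalised scale and -0.68, -0.34 and -0.29 with normexp on the background column, so Egfr lay lower relative to Pdgfra in 3 of 3 pairs on all 3 scales. The size of this difference rests on dim spots of both receptors. At day 3 the Egfr spot read 29.4 to 45.6 scanner units and the Pdgfra spot 25.1 to 69.3. With normexp the size also rests on a Pdgfra spot close to its own background column. Ednrb minus Pdgfra was below 0 in 3 of 3 pairs on each scale too, but ran from -0.13 to -0.11 in the authors' processed values and from -1.39 to -0.84 with normexp. The order of Ednrb and Egfr turned with the scale. Ednrb minus Egfr was 0.77, 0.15 and 1.1 in the authors' processed values, -0.50, 0.01 and 0.25 on the quantile-normalised scale and -0.53, -1.06 and -0.55 with normexp. With 3 pairs, a two-sided sign-flip test cannot give an exact p below 0.25, and none was run.

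Genes with a profile like that of a receptor were found by the distance between log2 values over the 6 arrays, each taken from its own mean. For Egfr the nearest tested gene was ENSRNOG00000016715, at a distance of 0.12 where the median gene was at 0.75. The spot averaged 134 ± 17.2 scanner units before differentiation and 59.8 ± 12.1 after it (SD, n = 3 each), and its log2 change of -0.57 was not past the test (adjusted p = 0.0715, limma). The next 2 in distance, both at 0.13, were called lower (adjusted p = 0.0304 and 0.0447, limma). Genes chosen by distance to Egfr over these same arrays share its day difference by construction, so these calls are not separate results. For Ednrb the nearest was ENSRNOG00000020457, at 0.31 where the median gene was at 1.04, with a log2 change of -0.41 (adjusted p = 0.605, limma). For Pdgfra the nearest gene was at 0.15 and the median gene at 0.58. The tables used here pair neither identifier with a symbol.

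**Figure D4:**
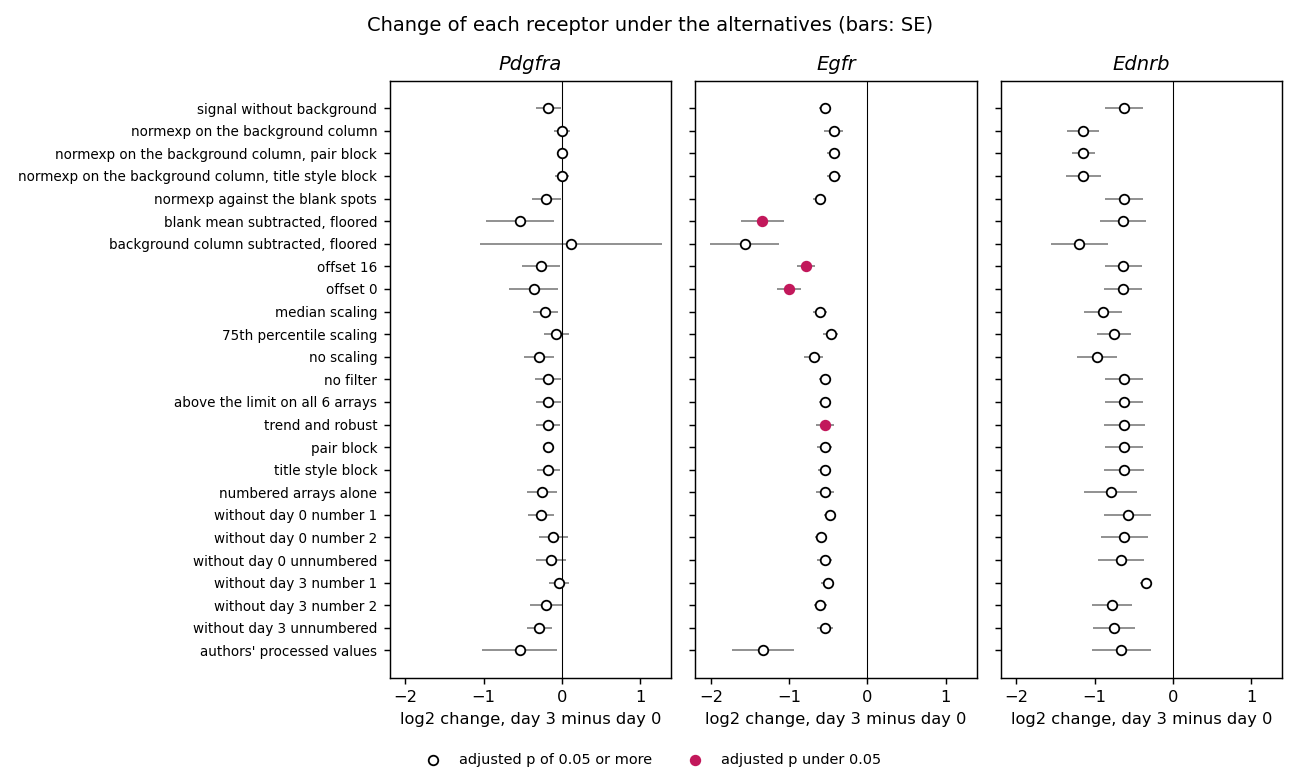
Log2 change from day 0 to day 3 (horizontal axis, points with SE bars) of Pdgfra, Egfr and Ednrb on the scale of the report and under 24 processing alternatives (rows), leaving out 7 further ones on the authors' processed values; filled points have an adjusted p under 0.05. Egfr and Ednrb lie below 0 in every row, Pdgfra lies between -0.54 and 0.12, and the 4 filled points shown all belong to Egfr.

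The transcripts of the receptors' ligands, relatives and signal proteins, and those of astrocytes, microglia and other cells that the cultures could hold, were not analysed here, because only the 3 receptors have a gene name. Whether a shift in cell types moved with these values was not tested.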

How the data were processed

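Total RNA was amplified to amino-allyl RNA and labelled with Cy5, per the labels' protocols. The authors deposited, per the file headers, 1 median intensity per spot, read at 635 nm, with a median for the background beside it. Their processed intensity table was read against these values: each column is a straight line in its array's spot signal. Spots for which it lists no value were missing in the fit to it. No label or header names the scanner or its software. Log2 values were computed here in R 4.3.3 with limma 3.58.1: log2 of the signal plus 50, quantile normalised over gene spots, and genes were kept if all arrays of either day exceeded the limit. Days were compared with lmFit and eBayes without a block, p-values adjusted by Benjamini-Hochberg over all genes tested. The fit was tested on simulated independent values without pairs, with falls larger than the receptor changes of the main fit. It was not tested for changes as small as those. The alternative values on the background column used normexp with the same offset.

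The receptors, motifs, settings and gene lists were chosen with earlier results of these data known. The gene lists were not used, since no identifier could be paired with a symbol; the symbols of the 3 receptors came with the definition of the set. Named genes were the receptors and, by distance, the nearest genes, limited to 2 identifiers. The pairs rest on the data: deviations of same-numbered arrays correlated by 0.27, 0.48 and 0.60 across genes, all over 0.1, the unnumbered arrays forming the third pair. In the background-corrected values they were 0.09, 0.14 and 0.24, so pair 1 was under that bound and the block there rests on the numbers alone. A difference between title styles also adds to these values. The number of arrays limits the precision.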

Additional observations from a re-analysis of the deposited data

How the results depend on the processing

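The authors' processed values with the replicate block or with an array left out were added after seeing the data. So was the difference in day effect between the title styles. Over 31 alternatives each, Egfr was lower at day 3 in 31, with log2 changes of -1.59 to -0.43, and Ednrb in 31, with -1.20 to -0.35. Pdgfra was lower in 26, with -0.99 to 0.12. Neither Ednrb (adjusted p 0.15 to 0.993) nor Pdgfra (0.328 to 1) was called in any (limma). All alternatives refit the same arrays, and those that changed only the block, filter or variance repeated a log2 change. The number of alternatives with a lower value is therefore not a number of separate results. Pdgfra changed sign with normexp on the background column, to 0.0030 without a block, with the replicate block and with title style as a block, with that column subtracted (0.12), and in the authors' processed values without day 3 number 1 (0.039). Egfr gained a call with the blank mean subtracted (-1.34), offset 16 (-0.79), offset 0 (-1.0), trended and robust variance (-0.54), and in the authors' processed values with the replicate block (-1.33, adjusted p = 0.00472, limma). That last fit gave the 3 receptors the same SE, 0.36. The settings that called Egfr called 0.453% to 3.68% of tested genes lower, against 0.317% in the main fit. The replicate block on the main values changed no call of a receptor, with adjusted p = 0.126 for Egfr, 0.312 for Ednrb and 0.328 for Pdgfra (limma), and gave 95 genes higher and 42 lower. With single arrays left out of the main values, Egfr had an adjusted p of 0.113 to 0.207 (limma) at -0.60 to -0.48. In the authors' processed values with single arrays left out, it had 0.0676 to 0.44 (limma) at -1.59 to -1.06. The cause of these changes was not tested.

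Counts of called genes, 112 higher and 49 lower, moved more. They became 4 and 1 with normexp on the background column, 2 and 0 with title style as its block, and 0 and 0 with its replicate block (limma, where 1347 genes had p under 0.05 before adjustment). Subtracting the background column gave 24 and 1, subtracting the blank mean 373 and 152, offset 0 gave 230 and 95, and trended and robust variance 294 and 97. There were 186 higher with 75th percentile scaling, 72 higher and 87 lower with no scaling, 64 higher with no filter and 114 lower with title style as a block. The authors' processed values gave 275 and 80, and 674 and 567 with the replicate block. With single arrays left out, the authors' processed values gave 124 to 331 higher and 16 to 140 lower. On the quantile-normalised scale of the main fit, the numbered arrays alone gave 0 and 0 (limma, where 1998 genes had p under 0.05 before adjustment). Single arrays left out on that scale gave 0 to 76 higher and 0 to 19 lower (limma, at least 1660 such genes). Rises made up 69.6% of calls, 56.3% with median scaling and 45.3% with no scaling. With 75th percentile scaling the median gene moved by 0.12 on the log2 scale, relative to which Pdgfra, Egfr and Ednrb lay at -0.19, -0.59 and -0.87. Signals close to the blank spots limit what can be said of Pdgfra and Egfr.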
